A study of Homo sapiens with 12 samples.

Results

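Keratins are the intermediate filament proteins of epithelial cells, and each filament is built from pairs of 1 acidic type I and 1 basic type II chain. Simple epithelia and the luminal cells of prostate glands carry KRT8 and KRT18, with KRT19 and at some sites KRT7 or KRT20, whereas basal cells are known for KRT5, KRT14, KRT15 and KRT17. Injury and activation bring up KRT6 proteins with KRT16 in skin, and the hair follicle has keratins of its own. The keratin genes were taken as every gene symbol of the deposited tables made of KRT, a number and at most 1 letter from A to C, which gave 55 of the 60835 symbols. By textbook roles they were 5 luminal simple, 4 basal, 4 wound or activation, 13 suprabasal and stratified, 9 inner root sheath, 17 hair and 3 other keratins. In the genome (GRCh38, annotation of GENCODE 29) 28 type I genes lay on chromosome 17 between 40654665 and 41624842, and 26 type II genes lay on chromosome 12 between 52168996 and 52952906 together with KRT18, the type I gene of that cluster.

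Messenger RNA was sequenced from LNCaP, an androgen-sensitive human prostate cancer line that the labels spell LACAP. The 12 libraries formed 4 groups of 3, called biological replicates in the series design with no word on separate cultures: cells with shRNA against FOXA1, their negative control shRNA group, cells with shRNA against TRIM28, and a second negative control shRNA group for these. FOXA1 is a pioneer transcription factor of luminal cells, and TRIM28 is a nuclear corepressor that KRAB zinc finger proteins bring to their target sites. The titles of the knockdown libraries read SH control and the columns use SI, and some genotype labels carry a gene number next to that of FOXA1 or TRIM28, so knockdown groups were taken from the treatment labels. No shRNA sequence, clone, time point or dose is given in the sources used here, and every library carries batch label 1.

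Libraries held 12256092 to 15152890 counts. FOXA1 stood at 46.8 to 47.6 FPKM in the FOXA1 knockdown, against a control mean of 161 FPKM, and TRIM28 stood at 34.0%, 30.1% and 14.5% of its control mean in TRIM28 knockdown replicates 1, 2 and 3. FOXA1 was itself at 50.3%, 45.4% and 72.5% of its control mean in those TRIM28 knockdown libraries. Replicate 3 of the TRIM28 knockdown stood apart: its counts differed from replicates 1 and 2 with a chi-square of 25.8 and 23.3 per degree of freedom, against 3.12 to 6.31 for all other pairs of 1 group. The 5 stromal markers, all with a count in each TRIM28 knockdown library, summed to 65.6 FPKM in replicate 3, against 5.23 and 6.55 FPKM in replicates 1 and 2 and 4.57 to 5.64 FPKM in the TRIM28 control. COL3A1 accounted for 34.5 FPKM of this and COL1A1 for 22.1 FPKM. Their part in the keratin values of that library was not tested, and the TRIM28 tests below are given with and without it. All 8 luminal prostate markers were present in every library, summing to 673 to 692 FPKM in the FOXA1 knockdown, 1110 to 1130 FPKM in its control, 640 to 782 FPKM in the TRIM28 knockdown and 1120 to 1130 FPKM in its control.

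Few keratin genes were on. A gene was called expressed with at least 1 FPKM, that is counts per length and library size, in all 3 libraries of a group, and low with at least 10 counts in all 3. Of the 55 genes 9 were expressed (KRT8, KRT18, KRT19, KRT10, KRT80, KRT14, KRT15, KRT16 and KRT75), 4 were low (KRT7, KRT17, KRT32 and KRT36), 34 had a trace of counts and 8 had none. The luminal list had 3 expressed members, 1 low and 1 at trace level, KRT20. The basal list had 2 expressed members, 1 low and 1 at trace level, KRT5, the usual type II partner of KRT14. Both expressed basal members, KRT14 and KRT15, met the rule only in the FOXA1 knockdown, as did KRT16 and KRT75. KRT5 had 13 counts in all in the FOXA1 knockdown and 7 in its control, and 19 in the TRIM28 knockdown and 4 in its control. The other trace genes never passed 15 counts in a library.

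In control cells the keratin message was luminal, and its leading genes were KRT18 and KRT19. Per length, KRT18 averaged 95.3 ± 5.78 FPKM in the TRIM28 control and 91.2 ± 4.11 FPKM in the FOXA1 control (SD, n = 3 each), ahead of KRT19 at 19.5 ± 3.54 FPKM in the TRIM28 control and 20.7 ± 1.86 FPKM in the FOXA1 control. KRT10 followed at 12.3 ± 1.39 FPKM in the TRIM28 control and 12.3 ± 0.513 FPKM in the FOXA1 control, and KRT8 at 9.04 ± 0.217 FPKM in the TRIM28 control and 8.82 ± 0.392 FPKM in the FOXA1 control. KRT80 came next at 1.60 ± 0.274 FPKM in the TRIM28 control and 1.43 ± 0.18 FPKM in the FOXA1 control, and no other keratin reached 1 FPKM in a control library. The luminal keratins made up 88.6% to 89.2% of keratin FPKM in the TRIM28 control and 88.0% to 88.8% in the FOXA1 control. The controls of the TRIM28 arm did not differ from those of the FOXA1 arm at an adjusted p under 0.05 for any of 14839 genes in edgeR's quasi-likelihood test (0% called, 635 at an unadjusted p under 0.05, and 0 in DESeq2). Among the 6 keratins tested there, 0 were at an unadjusted p under 0.05.

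**Figure D1:**
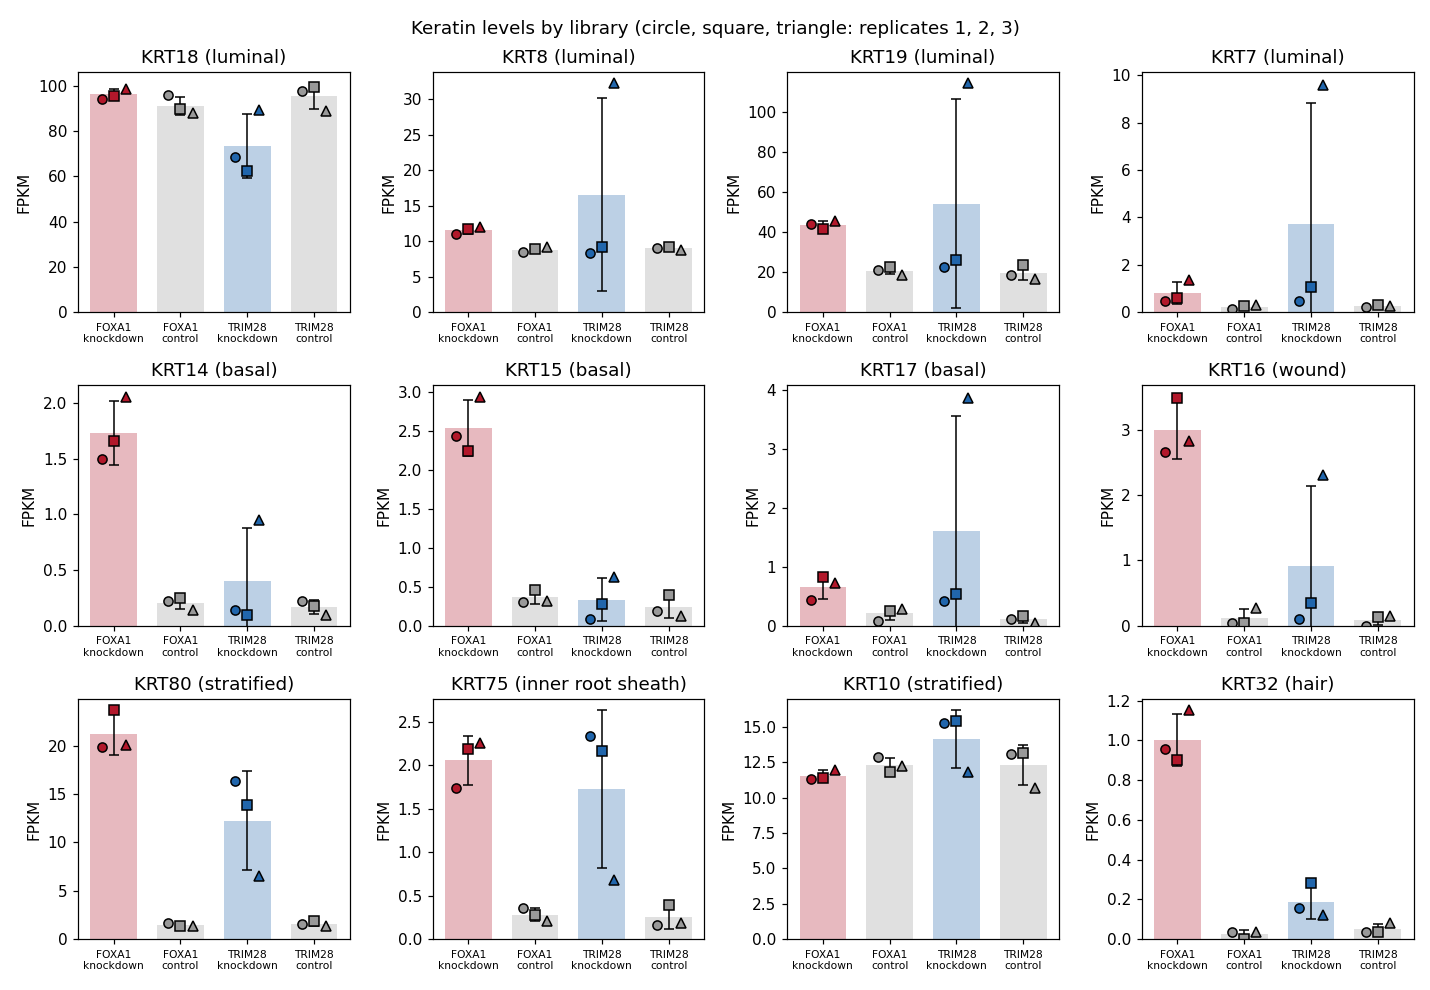
FPKM of 12 keratin genes in the 4 groups; points are libraries, bars are means of 3 and whiskers are SDs, cut at 0. KRT80, KRT15 and KRT14 were higher in all FOXA1 knockdown libraries than in their controls, and KRT19, KRT8, KRT7 and KRT17 were highest in TRIM28 knockdown replicate 3 (triangle).

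In the FOXA1 knockdown the keratins that changed all rose. KRT80 and KRT19 added most to the level, the basal KRT14 and KRT15 and the wound keratin KRT16 came up from low control values, and KRT18 and KRT10 were not called. edgeR tested 13 of the 55 keratins and called 11 higher and 0 lower at an adjusted p under 0.05 (0 lower also at an unadjusted p under 0.05 and in DESeq2), against 52.4% of all 14953 tested genes called, 26.1% higher and 26.3% lower. The median log2 fold change over all tested genes was -0.02. KRT7, KRT14, KRT16, KRT17, KRT32, KRT36 and KRT75 passed the filter on low counts through the knockdown libraries and did not pass it between the controls, so the count over tested keratins is not support for a shift of the family. Of the 6 that passed it also between the controls, KRT8, KRT15, KRT19 and KRT80 rose. In these bulk samples more cells with a keratin and more of its RNA per cell cannot be told apart.

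Among the luminal keratins KRT19, the short type I keratin without a tail domain, had 43.7, 41.5 and 45.5 FPKM in the FOXA1 knockdown, against 21.2, 22.3 and 18.7 FPKM in its control. All knockdown libraries lay above all controls. The log2 fold change was 1.06 (SE 0.08, edgeR adjusted p = 1.98e-12), and in 1 fit of all 12 libraries it was 1.06 with an adjusted p of 0.191. KRT8, the type II chain of simple epithelia, had 11.0, 11.7 and 12.0 FPKM in the FOXA1 knockdown, against 8.42, 8.84 and 9.21 FPKM in its control. The groups did not overlap, with a log2 fold change of 0.38 (SE 0.08, edgeR adjusted p = 0.000401), and 0.38 with an adjusted p of 0.569 in the fit of 12 libraries. KRT18, the type I partner of KRT8, had 94.2, 95.7 and 98.7 FPKM in the FOXA1 knockdown and 95.8, 89.7 and 88.0 FPKM in its control. The groups overlapped, and the log2 fold change of 0.06 (SE 0.05) was not called (edgeR adjusted p = 0.287). KRT18 thus stood at 8.18 to 8.54 times the FPKM of KRT8 in the knockdown and 9.56 to 11.4 times in the control. KRT7, a keratin of ductal epithelia, had 0.447, 0.602 and 1.33 FPKM in the FOXA1 knockdown, against 0.132, 0.246 and 0.277 FPKM in its control. It rose by a log2 fold change of 1.82 (SE 0.51, edgeR adjusted p = 0.00341), but without FOXA1 knockdown replicate 3, its highest library, the value was 1.23 with an adjusted p of 0.0904, and in the fit of 12 libraries it was 1.83 with an adjusted p of 0.283. KRT20 had 3 counts in the knockdown and 10 in the control and was not tested.

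Of the 4 basal keratins KRT14, KRT15 and KRT17 rose and KRT5 was not tested, and all stayed far below KRT18, KRT19 and KRT8 in FPKM. KRT15, a basal keratin also known from hair follicle stem cells, had 2.44, 2.24 and 2.94 FPKM in the FOXA1 knockdown, against 0.305, 0.461 and 0.320 FPKM in its control. Its log2 fold change was 2.78 (SE 0.22, edgeR adjusted p = 7.17e-12). KRT14, the type I chain of basal keratinocytes, had 1.49, 1.66 and 2.05 FPKM in the FOXA1 knockdown, against 0.219, 0.244 and 0.138 FPKM in its control. For both genes every knockdown library lay above every control. KRT14 rose by a log2 fold change of 3.05 (SE 0.39, edgeR adjusted p = 1.25e-07). KRT17, a basal keratin also induced by injury, had 0.432, 0.820 and 0.724 FPKM in the FOXA1 knockdown, against 0.0780, 0.254 and 0.287 FPKM in its control. Its log2 fold change was 1.63 (SE 0.49, edgeR adjusted p = 0.00603), and without FOXA1 control replicate 1, the lowest library, it was 1.25 with an adjusted p of 0.0512, and in the fit of 12 libraries it was 1.64 with an adjusted p of 0.158. Summed, the 4 basal keratins had 5.06 ± 0.622 FPKM in the FOXA1 knockdown and 0.839 ± 0.243 FPKM in its control (SD, n = 3 each), while the 5 luminal keratins had 152 ± 4.79 and 121 ± 4.71 FPKM. Luminal over basal summed FPKM was 27.3 to 32.3 in the knockdown and 110 to 198 in the control, so luminal message still far exceeded basal message. The 5 basal markers summed to 10.8 to 12.4 FPKM in the knockdown and 9.76 to 12.3 FPKM in the control, overlapping ranges. ITGA6 made up most of both sums (9.43, 9.84 and 10.6 FPKM in the knockdown and 12.2, 9.62 and 11.8 FPKM in the control). COL17A1, a hemidesmosomal collagen of the same list, did move, with 1.26, 0.965 and 1.66 FPKM in the knockdown, against 0.0765, 0.0830 and 0.0936 FPKM in the control. COL17A1 rose by a log2 fold change of 3.91 (SE 0.30, edgeR adjusted p = 5.53e-12), and the part of these markers in the keratin values was not tested. TP63, the defining basal transcription factor, was at 0, 0.0152 and 0 FPKM in the knockdown and 0.0145, 0.0539 and 0 FPKM in the control.

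Outside the luminal and basal lists KRT80, a type II keratin found in many epithelia at cell margins and in filaments, changed most in level. It had 19.8, 23.6 and 20.03 FPKM in the FOXA1 knockdown, against 1.64, 1.32 and 1.33 FPKM in its control. It took 9.80% to 11.9% of keratin FPKM in the knockdown and 0.963% to 1.15% in the control. Its log2 fold change was 3.87 (SE 0.10, edgeR adjusted p = 1.95e-22). KRT16, the stress-induced type I keratin, had 2.67, 3.49 and 2.83 FPKM in the FOXA1 knockdown, against 0.0432, 0.0401 and 0.272 FPKM in its control. The groups did not overlap, with a log2 fold change of 4.63 (SE 0.41, edgeR adjusted p = 1.10e-10). That value rose to 5.99 without FOXA1 control replicate 3, which held most of the control counts. The type II partners of KRT16 were at trace level. KRT6A, KRT6B and KRT6C had 12, 20 and 23 counts in the knockdown and 12, 4 and 2 in the control. Mean FPKM in the knockdown was 1.03, 5.04 and 11.4 times that of the control, and none of the 3 was tested in these 6 libraries. KRT10, the type I keratin of differentiating epidermis, had 11.3, 11.4 and 12.0 FPKM in the FOXA1 knockdown, against 12.9, 11.8 and 12.3 FPKM in its control. Its groups overlapped, and its log2 fold change of -0.11 was not called (SE 0.09, edgeR adjusted p = 0.322). Of the squamous markers IVL rose, with 1.07, 1.15 and 1.56 FPKM in the knockdown and 0, 0.0309 and 0 FPKM in the control. The 5 of 6 markers with an entry summed to 1.28 to 1.79 FPKM in the knockdown, mostly IVL, and 0.00587 to 0.721 FPKM in the control. FLG averaged 0.00928 FPKM in both groups, and SPRR1A overlapped between them. SPRR1B and KRTDAP were at 0 in all 3 knockdown libraries. The part of these markers in the keratin values was not tested.

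Hair follicle keratins also appeared. KRT75, of the companion layer of the follicle and placed here with the inner root sheath list, had 1.73, 2.18 and 2.25 FPKM in the FOXA1 knockdown, against 0.363, 0.276 and 0.208 FPKM in its control. Its log2 fold change was 2.83 (SE 0.31, edgeR adjusted p = 5.93e-09). KRT32, a type I hair keratin, had 0.954, 0.900 and 1.15 FPKM in the FOXA1 knockdown, against 0.0357, 0 and 0.0374 FPKM in its control. It rested on 86 counts in the knockdown and 2 in the control, with a fitted log2 fold change of 5.16 (SE 0.62, edgeR adjusted p = 4.30e-08). KRT36, another type I hair keratin, had 0.657, 0.749 and 0.737 FPKM in the FOXA1 knockdown and 0 in all control libraries. With 52 counts against 0 it was 17-fold higher, taking 3 counts over the control group as the floor (edgeR adjusted p = 8.21e-07). For all 3 genes no knockdown library overlapped a control. They passed the filter on low counts through knockdown libraries, and the share of all genes without overlap was not computed. Nothing is therefore read from this lack of overlap. The untested hair keratins KRT83, KRT81, KRT34 and KRT86 had 21, 9, 7 and 5 counts in the knockdown against 0 in the control. On the same floor they were 6.87, 2.94, 2.29 and 1.63 times higher. The floor leaves out the sampling error of the knockdown counts, so none of these ratios, nor that of KRT36, is a strict lower bound.

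The promoters of these follicle keratins are shown with that of KRT10, which was not called, because the first 3 rose together in the FOXA1 knockdown. They are the 250 bases before the start in RefSeq, GRCh38.p14, read on the minus strand of KRT75 (chr12:52434372-52434621), KRT32 (chr17:41467387-41467636), KRT36 (chr17:41489911-41490160) and KRT10 (chr17:40822615-40822864), with the ATAAA or, in KRT10, the TATAAA nearest the start in capitals.
KRT75: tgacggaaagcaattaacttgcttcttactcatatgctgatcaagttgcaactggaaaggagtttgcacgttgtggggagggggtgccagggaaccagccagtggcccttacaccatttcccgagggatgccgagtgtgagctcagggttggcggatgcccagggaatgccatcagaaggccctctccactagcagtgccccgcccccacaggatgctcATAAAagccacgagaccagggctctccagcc
KRT32: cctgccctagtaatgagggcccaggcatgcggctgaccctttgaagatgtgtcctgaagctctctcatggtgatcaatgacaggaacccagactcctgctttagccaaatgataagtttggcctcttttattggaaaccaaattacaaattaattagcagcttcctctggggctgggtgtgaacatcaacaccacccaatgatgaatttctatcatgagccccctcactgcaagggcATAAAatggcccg
KRT36: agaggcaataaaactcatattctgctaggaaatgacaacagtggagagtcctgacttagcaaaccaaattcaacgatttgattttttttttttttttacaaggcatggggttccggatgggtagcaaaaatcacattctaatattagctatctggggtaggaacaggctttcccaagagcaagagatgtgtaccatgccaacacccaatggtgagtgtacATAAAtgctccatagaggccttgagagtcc
KRT10: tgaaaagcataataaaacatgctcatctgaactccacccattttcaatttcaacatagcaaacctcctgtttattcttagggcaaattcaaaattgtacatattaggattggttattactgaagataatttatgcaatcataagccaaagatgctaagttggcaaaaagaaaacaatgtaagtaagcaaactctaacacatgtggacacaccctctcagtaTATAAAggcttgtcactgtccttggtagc
The capitals lie 31 to 27 bases before the start in KRT75, 13 to 9 in KRT32, 30 to 26 in KRT36 and 29 to 24 in KRT10. The KRT36 stretch lies inside the KRT36 gene span of the deposited annotation (41486136 to 41492546), so its RefSeq start is not the outer end of that span. RefSeq promoter windows, which reach 50 bases past the start, were at hand for 34 of the 55 keratins. Only the 250 bases before the start were searched for the motifs. TATAAA on either strand was in 20 of the 34 (58.8%) and in 10.7% of all 35116 promoters. ATAAA on the gene's strand 20 to 40 bases before the start, a window chosen after the sequences were seen and overlapping TATAAA, was in 24 of 34 (70.6%) and 4.39% of all. The forkhead motif TGTTTAC, on either strand, was in 0 of 34 keratin windows and 2.98% of all, and the androgen receptor half-site AGAACA in 4 of 34 (11.8%) and 12.4% of all. A match describes letters and is not a bound site.

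**Figure D2:**
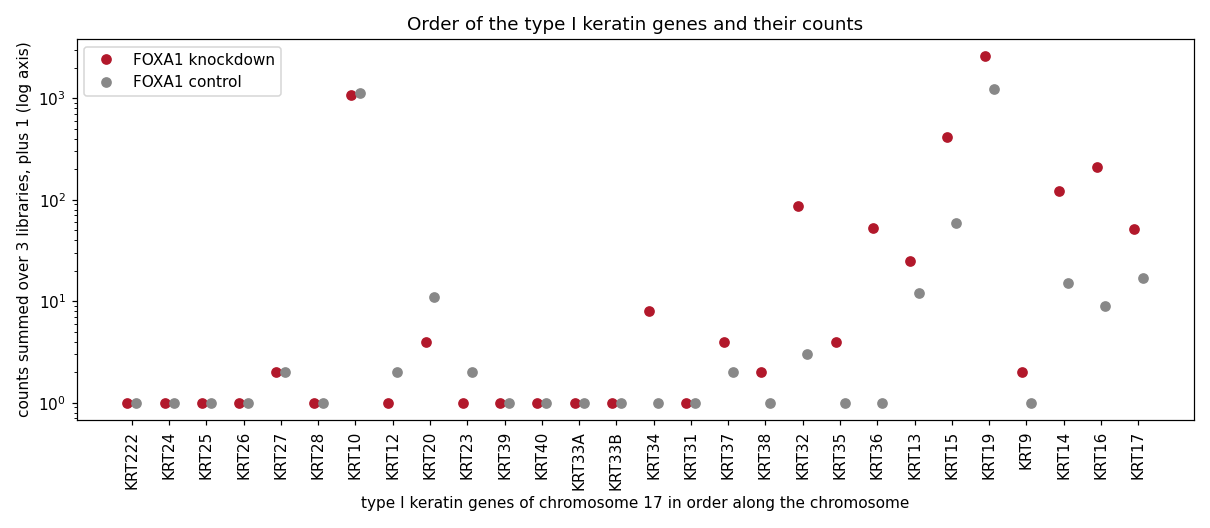
Counts summed over 3 libraries plus 1 (log axis) for the 28 type I keratin genes of chromosome 17, in order along the chromosome, in the FOXA1 knockdown and its control. KRT32, KRT36, KRT15, KRT19, KRT14, KRT16 and KRT17, all called higher, lie in the last stretch of the order among KRT35, KRT13 and KRT9, which were at trace level and not tested, while KRT10 lies apart with similar counts in both groups.

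In the TRIM28 knockdown KRT80 and KRT75 rose, and KRT18 was called lower, a call lost in most fits that left out 1 library. edgeR tested 7 of the 55 keratins and called 2 higher and 1 lower, against 26.7% of all 14981 tested genes called, 13.3% higher and 13.3% lower. Higher calls were 49.9% of calls with TMM scaling and 63.4% with library size alone. Without replicate 3, 45% of 15475 genes were called (21.5% higher, 23.5% lower), and again 2 of 7 keratins were higher and 1 lower. KRT80 had 16.3, 13.9 and 6.50 FPKM in the TRIM28 knockdown, against 1.52, 1.90 and 1.38 FPKM in its control. No knockdown library overlapped the controls, although replicate 3 was lowest. The log2 fold change was 2.85 (SE 0.34, edgeR adjusted p = 0.00145), and 3.14 (SE 0.13, adjusted p = 1.68e-21) without replicate 3. KRT75 had 2.33, 2.16 and 0.677 FPKM in the TRIM28 knockdown, against 0.166, 0.394 and 0.184 FPKM in its control. The groups did not overlap, with a log2 fold change of 2.68 (SE 0.54, edgeR adjusted p = 0.00616), and 3.05 (SE 0.38, adjusted p = 2.20e-08) without replicate 3.

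KRT18 had 68.5, 62.3 and 89.3 FPKM in the TRIM28 knockdown, against 97.9, 99.4 and 88.7 FPKM in its control. Replicates 1 and 2 lay below all controls, and replicate 3 lay within them. The log2 fold change was -0.45 (SE 0.13, edgeR adjusted p = 0.0341), and -0.63 (SE 0.07, adjusted p = 1.56e-09) without replicate 3. The call was lost without TRIM28 control replicate 1, 2 or 3 (adjusted p of 0.1, 0.13 and 0.069), without TRIM28 knockdown replicate 1 or 2 (0.104 and 0.114), and with library size alone (0.0505). KRT10 had 15.3, 15.4 and 11.8 FPKM in the TRIM28 knockdown and 13.1, 13.1 and 10.7 FPKM in its control, and its groups overlapped. Its log2 fold change of 0.13 was not called (SE 0.13, edgeR adjusted p = 0.516), nor was that of 0.22 without replicate 3 (adjusted p = 0.0971).

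Of the 12 expressed or low keratins with a count in the TRIM28 knockdown, 8 were highest in replicate 3. The matching share over all genes was not computed, so nothing is read from this count. KRT19 had 22.3, 25.8 and 114 FPKM in the TRIM28 knockdown and 18.3, 23.5 and 16.7 FPKM in its control. Its log2 fold change of 1.41 was not called (SE 0.78, edgeR adjusted p = 0.257), and without replicate 3 it was 0.21 (SE 0.13, adjusted p = 0.188). KRT8 had 8.32, 9.12 and 32.3 FPKM in the TRIM28 knockdown and 9.10, 9.22 and 8.80 FPKM in its control. Replicates 1 and 2 of both genes were near or within the control range. The log2 fold change of KRT8 was 0.81 (SE 0.61, edgeR adjusted p = 0.387), and -0.14 (SE 0.11, adjusted p = 0.317) without replicate 3. KRT7 had 0.479, 1.04 and 9.59 FPKM in the TRIM28 knockdown and 0.221, 0.307 and 0.246 FPKM in its control. KRT17 had 0.424, 0.529 and 3.87 FPKM in the TRIM28 knockdown and 0.118, 0.156 and 0.0436 FPKM in its control. For both genes all knockdown libraries lay above the controls, but neither passed the filter on low counts in the 6 libraries. In the fit of all 12 libraries, where replicate 3 counts as any other, edgeR gave log2 fold changes of 3.75 for KRT7 (SE 1.11, adjusted p = 0.0249) and 3.77 for KRT17 (SE 0.92, adjusted p = 0.00609). With no filter the values were 3.76 for KRT7 (adjusted p = 0.300) and 3.79 for KRT17 (adjusted p = 3.85e-09), and without TRIM28 knockdown replicate 1 they were 4.28 (adjusted p = 0.0211) and 4.24 (adjusted p = 0.0170). Without replicate 3 neither passed the filter. KRT16 had 0.0939, 0.341 and 2.31 FPKM in the TRIM28 knockdown and 0, 0.129 and 0.145 FPKM in its control. It did not pass the filter, and its log2 fold change was 3.20 (edgeR adjusted p = 0.0524) in the fit of 12 libraries and 3.21 (adjusted p = 9.20e-05) with no filter. KRT14 had 0.143, 0.0988 and 0.948 FPKM in the TRIM28 knockdown and 0.220, 0.174 and 0.0977 FPKM in its control. It did not pass the filter either, and was not called in the fit of 12 libraries (log2 fold change 1.15, edgeR adjusted p = 0.223) or with no filter (1.18, adjusted p = 0.401). Replicate 3 was the highest library for both genes, and replicates 1 and 2 overlapped the controls for KRT14 and, in replicate 1, for KRT16. KRT15 had 0.0828, 0.280 and 0.630 FPKM in the TRIM28 knockdown and 0.192, 0.398 and 0.128 FPKM in its control. Its groups overlapped, with a log2 fold change of 0.37 (SE 0.67, edgeR adjusted p = 0.716), and -0.51 (SE 0.60, adjusted p = 0.517) without replicate 3. KRT32 was at 0.155, 0.282 and 0.122 FPKM in the TRIM28 knockdown and 0.0359, 0.0356 and 0.0797 FPKM in its control, and KRT36 had 0 counts in the TRIM28 knockdown and 1 count in its control.

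Replicate 3 also held more of the basal and squamous markers than replicates 1 and 2. The 5 basal markers summed to 12.0, 11.4 and 19.2 FPKM in the TRIM28 knockdown libraries and 11.1 to 11.4 FPKM in the control, with COL17A1 at 0.416, 0.518 and 4.71 FPKM and CDH3 at 2.09 FPKM in replicate 3, and TP63 at 0 in all 3. The squamous markers summed to 0.0845, 0.107 and 2.74 FPKM in the knockdown and 0 to 0.175 FPKM in the control. The part of these markers in the keratin values of replicate 3 was not tested. Luminal keratins summed to 99.65, 98.3 and 246 FPKM in the knockdown and 114.5 to 132.5 FPKM in the control, and basal keratins to 0.893, 0.979 and 5.81 FPKM in the knockdown and 0.554 ± 0.227 FPKM in the control (SD, n = 3). Luminal over basal FPKM was therefore 112, 100 and 42.2 in the knockdown and 167 to 337 in the control. These ratios rest on few counts. KRT5, KRT14, KRT15 and KRT17 had 4, 11, 37 and 8 counts over the 3 control libraries. Their mean FPKM in knockdown replicates 1 and 2 was 3.5, 0.736, 0.758 and 4.51 times the control mean. KRT80 took 12.0%, 10.5% and 2.37% of keratin FPKM in the knockdown and 1.07% to 1.27% in the control.

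**Figure D3:**
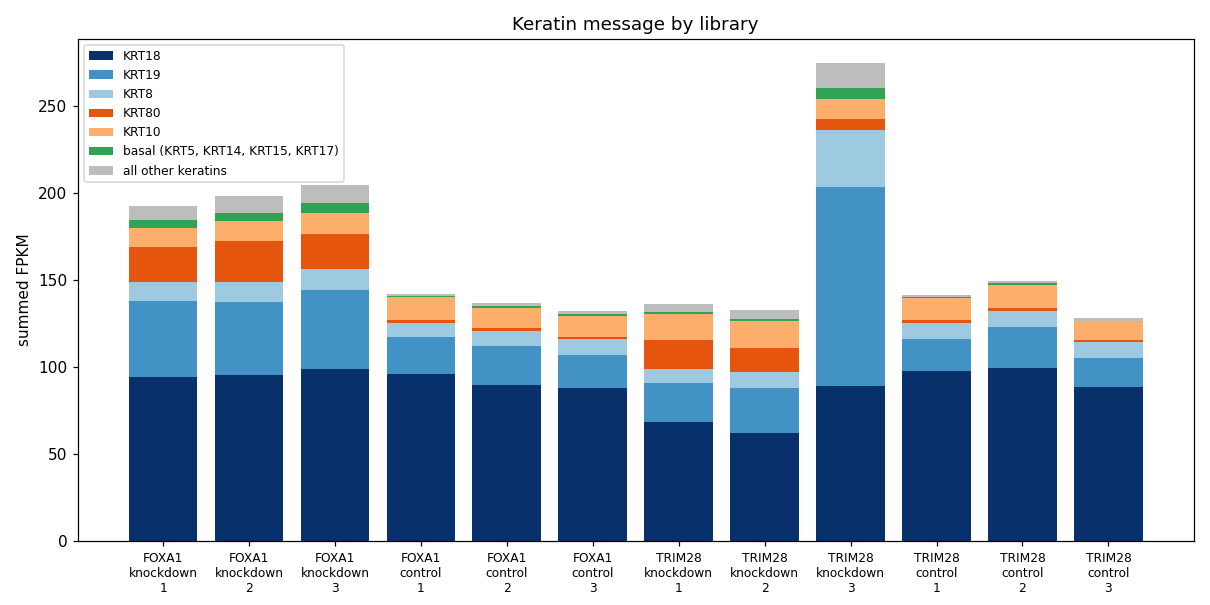
Summed keratin FPKM in each of the 12 libraries, split by gene, with the 4 basal keratins and all other keratins as blocks. KRT18 is the largest block outside TRIM28 knockdown replicate 3, where KRT19 reached 114 FPKM, and KRT80 (dark orange) took 9.80% to 12.0% of keratin FPKM in the FOXA1 knockdown and TRIM28 knockdown replicates 1 and 2, 2.37% in TRIM28 knockdown replicate 3 and 0.963% to 1.27% in the controls.

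The knockdown effects were then compared directly, as FOXA1 knockdown effect minus TRIM28 knockdown effect over all 12 libraries. edgeR tested 14 keratins and called 2, against 10.6% of all 15921 tested genes (5.98% higher, 4.59% lower; higher calls were 56.6% of calls with TMM scaling and 40% with library size alone). KRT15 differed by 2.43 on the log2 scale (SE 0.71, edgeR adjusted p = 0.0418) and KRT18 by 0.52 (SE 0.15, adjusted p = 0.0384), both higher in the FOXA1 arm. Neither call held on leaving out any single FOXA1 knockdown or FOXA1 control library, TRIM28 control replicate 1 or 2, or TRIM28 knockdown replicate 2, where adjusted p ranged from 0.0536 to 0.186. The KRT18 call was also lost without TRIM28 knockdown replicate 1 (adjusted p = 0.0663). The rise of KRT80 differed by 1.03 (SE 0.44), which was not called (edgeR adjusted p = 0.181). KRT75 differed by 0.15 (SE 0.66, edgeR adjusted p = 0.919).

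Without TRIM28 knockdown replicate 3 the same contrast called 7 of 15 tested keratins, all higher in the FOXA1 arm, where 21.4% of 16499 genes were called (12.7% higher, 8.64% lower). KRT14, KRT16, KRT32 and KRT36 entered that test through the FOXA1 knockdown libraries, where they are high, so nothing is read from the count or its direction. They were KRT14 at 3.59 (SE 0.91, edgeR adjusted p = 0.00289), KRT16 at 3.51 (SE 1.12, adjusted p = 0.0202), KRT15 at 3.31, KRT19 at 0.86, KRT80 at 0.74, KRT18 at 0.71 and KRT8 at 0.53 on the log2 scale. With all libraries KRT14 stood at 1.91, KRT16 at 1.43, KRT19 at -0.34 and KRT8 at -0.42, none called. KRT7 and KRT17 were not called either way, at -1.92 and -2.14 with all libraries and 0.39 and -0.36 without replicate 3.

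**Figure D4:**
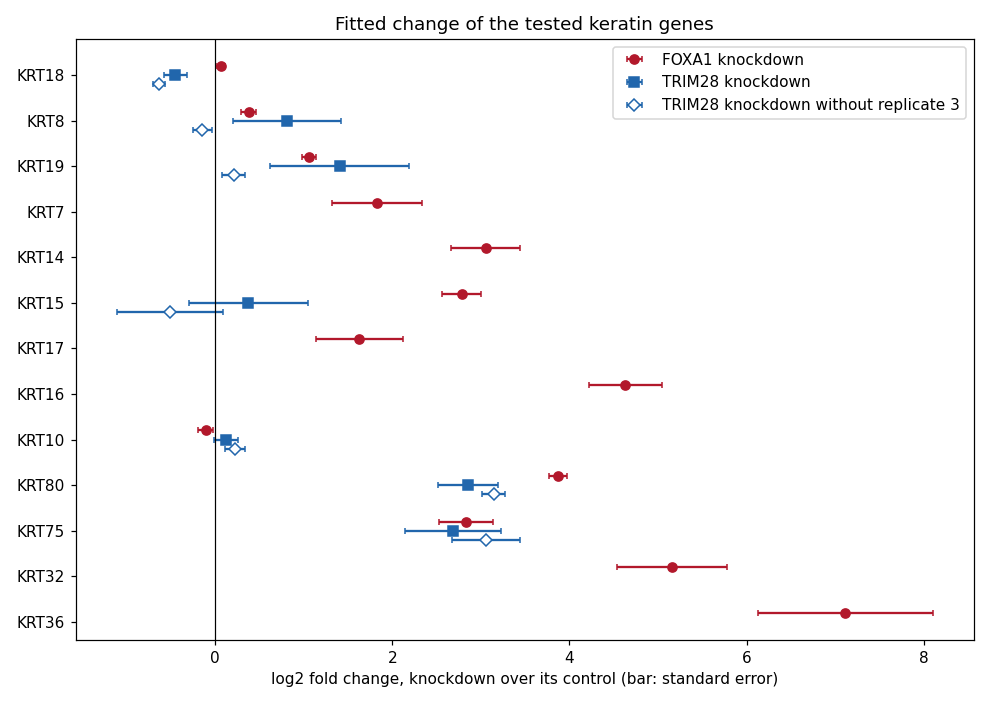
Fitted log2 fold change with its standard error for the keratins tested in the FOXA1 knockdown (red circles), the TRIM28 knockdown (blue squares) and the TRIM28 knockdown without replicate 3 (open diamonds). KRT80 and KRT75 lie to the right in both knockdowns, KRT18 lies left of 0 in the TRIM28 knockdown, and KRT8 and KRT19 move toward 0 without replicate 3; KRT36 has no control counts, so its fitted value is not a bound.

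The type II share of keratin FPKM was 17.7% to 20.1% in the FOXA1 knockdown and 7.78% to 8.89% in its control, and 18.5% to 21.5% in the TRIM28 knockdown and 8.03% to 8.73% in its control. All keratins together had 198.5 ± 5.90 FPKM in the FOXA1 knockdown and 137 ± 4.85 FPKM in its control (SD, n = 3 each).

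Genes that work with keratins gave mixed values. Of 20 desmosome and keratin linker genes, 15 were tested in the FOXA1 knockdown, with 3 higher and 5 lower (median log2 fold change -0.10), close to the 52.4% called over all tested genes. In the TRIM28 knockdown 17 were tested, with 2 higher and 4 lower (median -0.13), against 26.7% called over all tested genes, and 3 of 18 were higher and 8 lower without replicate 3, against 45%. PKP1, a desmosomal plaque protein, had 0.133, 0.180 and 0.141 FPKM in the FOXA1 knockdown, against 0.722, 0.916 and 0.703 FPKM in its control, a log2 fold change of -2.38 (SE 0.29, edgeR adjusted p = 4.96e-08). In the TRIM28 knockdown PKP1 fell by 1.84 on the log2 scale (SE 0.31, edgeR adjusted p = 0.00276), and by 2.02 (adjusted p = 1.75e-05) without replicate 3. PKP4, a related plaque protein, fell by 0.47 on the log2 scale in the FOXA1 knockdown (SE 0.06, edgeR adjusted p = 3.22e-08). FAM83H, a regulator of keratin filaments, rose by 0.44 in the FOXA1 knockdown (SE 0.06, edgeR adjusted p = 1.52e-06), and DST, which ties filaments to hemidesmosomes, fell by 0.62 (SE 0.08, adjusted p = 5.76e-08). In the TRIM28 knockdown FAM83H was at -0.26 (edgeR adjusted p = 0.0442), a call lost with library size alone (0.117) and in other alternatives. It was at -0.30 without replicate 3 (adjusted p = 0.000632). DST was not called there, at 0.37 (adjusted p = 0.0967) and 0.18 without replicate 3 (0.117). The knockdown effects differed by 0.71 for FAM83H (edgeR adjusted p = 0.000482) and -0.99 for DST (0.0019).

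Of 18 other intermediate filament genes 8 were tested in each knockdown, with 6 higher and 0 lower in the FOXA1 knockdown (median log2 fold change 0.48), where 26.1% of all tested genes were higher and 26.3% lower. There were 1 higher and 1 lower in the TRIM28 knockdown (median 0.23), where 13.3% of all tested genes were higher and 13.3% lower. Without replicate 3 there were 1 higher and 3 lower of 8 tested, where 21.5% of all tested genes were higher and 23.5% lower. LMNA, which encodes nuclear lamins A and C, had 37.0, 34.9 and 34.6 FPKM in the FOXA1 knockdown, against 18.04, 19.03 and 17.5 FPKM in its control. It rose by a log2 fold change of 0.95 there (SE 0.06, edgeR adjusted p = 3.09e-14) and by 0.64 in the TRIM28 knockdown (SE 0.10, adjusted p = 0.00191), 0.70 without replicate 3 (adjusted p = 1.65e-09). SYNM, IFFO2 and LMNB1 rose in the FOXA1 knockdown by 0.92, 0.90 and 0.31 on the log2 scale (edgeR adjusted p = 2.33e-06, 1.54e-07 and 4.01e-06). In the TRIM28 knockdown they were at 0.27, 0.34 and -0.21, none called (edgeR adjusted p = 0.24, 0.0757 and 0.310). Without replicate 3 LMNB1 was at -0.43 (adjusted p = 8.01e-07), and SYNM and IFFO2 were not called.

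Of 11 basal partner genes 7 were tested in each knockdown, with 4 called in the FOXA1 knockdown, all higher (median log2 fold change 1.37), a share near the 52.4% called over all tested genes. In the TRIM28 knockdown 2 were called, both higher (median 1.65), near the 26.7% over all tested genes, and 4 without replicate 3, all higher, where 45% of all tested genes were called. LAMB3, a laminin chain of the epithelial basement membrane, had 4.14, 3.93 and 3.74 FPKM in the FOXA1 knockdown, against 0.266, 0.247 and 0.157 FPKM in its control. It rose by a log2 fold change of 4.10 (SE 0.19, edgeR adjusted p = 9.64e-17) there and by 2.55 (SE 0.46, adjusted p = 0.00416) in the TRIM28 knockdown, 1.89 without replicate 3. COL17A1, counted also among the basal markers, had a log2 fold change of 4.94 (SE 1.46, edgeR adjusted p = 0.0595) in the TRIM28 knockdown, which was 2.90 (adjusted p = 1.61e-05) without replicate 3. ITGB4, the hemidesmosomal integrin chain, rose by 1.64 in the FOXA1 knockdown (SE 0.26, edgeR adjusted p = 4.80e-06). SERPINB5, a serpin of basal epithelium, had 3.01, 2.44 and 2.97 FPKM in the FOXA1 knockdown, against 1.77, 1.62 and 1.71 FPKM in its control. It rose by 0.71 there (SE 0.17, edgeR adjusted p = 0.00104) with an adjusted p of 0.063 in the fit of 12 libraries. In the TRIM28 knockdown SERPINB5 had 5.21, 6.72 and 2.18 FPKM, against 1.31, 1.41 and 1.55 FPKM in its control, so replicate 3 was the lowest knockdown library. It rose there by 1.65 (SE 0.36, edgeR adjusted p = 0.0102) and by 1.98 without replicate 3 (adjusted p = 4.94e-11), and the call was lost without TRIM28 control replicate 1 or 2 (adjusted p of 0.0561 and 0.0545).

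Some keratin counts may hold reads of near-identical copies, since the treatment of shared reads and of strand is not given in the sources used here. Of the 50-base windows of the GENCODE 29 transcript, 32.7% of KRT8, 31.8% of KRT18, 23.8% of KRT14, 22.0% of KRT16 and 17.4% of KRT17 also occur in transcripts of other genes, so these 5 are uncertain in that respect, against at most 1.79% for KRT7, KRT10, KRT15, KRT19, KRT32, KRT36, KRT75 and KRT80. KRT14 shares most with KRT16. KRT8 and KRT18 overlap by 525 exonic bases on opposite strands, and 7.67% of KRT7 and 9.51% of KRT75 exonic bases overlap other genes. The 118 KRT8 and KRT18 pseudogene symbols held 3.64% to 4.71% of the counts of KRT8, KRT18 and these pseudogenes together in the FOXA1 knockdown and 3.27% to 4.05% in its control. The share was 7.42%, 8.60% and 3.45% in TRIM28 knockdown replicates 1, 2 and 3 and 4.15% to 4.64% in their control. Those knockdown libraries held 172, 182 and 122 pseudogene counts, against 150, 142 and 128 in the control. The part of shared reads in the KRT18 values was not tested.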

How the data were processed

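Poly(A) RNA libraries were made, per the labels' protocols, and the authors deposited raw counts per gene symbol and FPKM values. Per the submitters' processing notes, the build is GRCh38 (hg38). Aligner, counter and strand setting: not given in the sources used here. FPKM equalled count over length and library total for 33045 of 33045 genes checked, within a relative tolerance of 0.001. Each symbol was kept once (62710 lines, 60835 symbols).

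Counts were tested with edgeR 4.0.16 in R 4.3.3 (TMM, filterByExpr with minimum count 10 and minimum total 15, robust quasi-likelihood F-test, two-sided, Benjamini-Hochberg over all tested genes, threshold 0.05). Each knockdown was fitted with its own control (6 libraries), and the difference over 12. Standard errors are of fitted log2 fold changes. The scripts were tested on simulated data. Alternatives were DESeq2 1.42.0, other scalings, no filter, a replicate block, 1 fit of 12 libraries and leaving out each library. The keratins, lists and partner genes were chosen with earlier results of these data known. Named keratins were those expressed or tested, and other lists gave up to 4 genes with the smallest p. Depth of 12256092 to 15152890 counts per library limits genes under about 10 counts. P-values measure the spread between these samples, which may be technical.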

Additional observations from a re-analysis of the deposited data

Results flagged for a closer look

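The knockdown effects differed for KRT15 and KRT18 when the difference itself was tested, but neither call was stable. Leaving out 1 library at a time, KRT15 lost its call in 9 of 12 fits (adjusted p up to 0.186) and KRT18 in 10 of 12 (up to 0.0901), and KRT18 also lost it with a replicate block (0.0613). The effect of the FOXA1 knockdown on KRT15 was larger than that of the TRIM28 knockdown by 2.43 on the log2 scale (edgeR adjusted p = 0.0418). The KRT15 log2 fold change was 2.78 in the FOXA1 knockdown and 0.37 in the TRIM28 knockdown. For KRT18 the difference was 0.521 on the log2 scale (edgeR adjusted p = 0.0384), with log2 fold changes of 0.06 in the FOXA1 knockdown and -0.45 in the TRIM28 knockdown. Without TRIM28 knockdown replicate 3 the differences were 3.31 for KRT15 (edgeR adjusted p = 1.39e-05) and 0.71 for KRT18 (adjusted p = 1.80e-08).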

How the results depend on the processing

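Of 744 gene-level values under alternatives, 670 kept their direction and side of the threshold, 43 lost the call, 23 gained it and 8 reversed. Leaving out TRIM28 knockdown replicate 3 reversed KRT15 and KRT8 in the TRIM28 knockdown, where leaving out 1 library gave -0.51 to 0.97 and -0.14 to 1.14. It reversed the differences of KRT19, KRT7, KRT75 and KRT8, where leaving out 1 library gave -0.71 to 0.86, -2.51 to 0.39, -0.35 to 0.43 and -0.74 to 0.53. The lowest KRT75 value came without TRIM28 control replicate 2, and it was -0.21 without TRIM28 knockdown replicate 3. Genes called in the TRIM28 knockdown numbered 3993, and 1817 to 6966 leaving out 1 library. Keratins called there were 3 of 7 tested, 5 of 14 in 1 fit of 12 libraries and 5 of 39 with no filter. All genes called in these fits were 3993 of 14981, 5717 of 15921 and 4872 of 35253. For the difference 1683 of 15921 genes were called, and 1176 to 3528 leaving out 1 library, with 2 of 14 tested keratins, and 0 to 7 of 14 or 15. Between the controls 0 genes were called, 8 with no filter and 0 to 2 leaving out 1 library. In the FOXA1 knockdown 8 to 13 keratins were called under all alternatives run. These ends were 8 of 14 tested in the fit of 12 libraries and 13 of 41 with no filter. Those fits of the FOXA1 knockdown called 6257 of 15921 and 7779 of 34174 genes. The fit of 12 libraries lost the calls of KRT19, KRT8, KRT7, KRT17 and SERPINB5 there (adjusted p = 0.191, 0.569, 0.283, 0.158 and 0.063) at log2 fold changes of 1.06, 0.38, 1.83, 1.64 and 0.72, and the cause was not tested. Replicate numbers did not pair the samples: same-numbered libraries correlated at -0.02 to 0.08 in the FOXA1 arm and -0.08 to 0.01 in the TRIM28 arm. With the replicate block 7997, 3846 and 1597 genes were called in the FOXA1 knockdown, the TRIM28 knockdown and the difference, the KRT19 difference was 0.0653, the KRT18 difference lost its call (adjusted p = 0.0613) and the KRT80 difference gained one (0.0229). Depth limits genes under about 10 counts per library. Means without TRIM28 knockdown replicate 3 were added after seeing the data.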
